A study of Danio rerio with 9 samples.

Results

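The genes described here encode the dystrophin complex of the muscle membrane, its laminin and integrin neighbours, the proteins that reseal a torn membrane, and the calpain proteases. They were matched by gene symbol, under a rule chosen with earlier results of these data known. Of the 32520 genes listed for each library, 91 matched. The matching genes comprised 10 for dystrophin and its cytoplasmic partners, 7 for sarcoglycans and sarcospan, 10 for dystroglycan and its glycosylation, 12 for laminin, integrin and adhesion linkers, 13 for ferlins, Ano5 and EHD proteins, 16 for annexins and 19 for calpains. A further 4 genes shared a prefix but encode other products. The prefixes *trim72* and *itga7* matched no symbol, so those genes were not analysed here.

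Dystrophin ties the actin cytoskeleton of a muscle fibre to dystroglycan, a membrane receptor whose sugar chains bind laminin in the surrounding matrix, and the sarcoglycans and sarcospan hold that link in place. Fibres can be torn when they contract, and ferlins, annexins, anoctamin 5 and EHD proteins act at the lesion in a calcium-dependent way, while calpains are calcium-activated proteases that cut cytoskeletal proteins. In humans, variants in many of these genes and in *BVES*, the counterpart of the gene disrupted here, cause limb-girdle or related muscular dystrophies.

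Skeletal muscle was sequenced in 3 groups of 3 libraries, which ask what loss of *bves* does to muscle and what training does on top of it. *bves* KO-EX denotes *bves* knockout zebrafish trained by swimming for 8 weeks, in sessions of 1.5 h with 1 rest day after 3 days, against 10 cm/s and later 16 cm/s. *bves* KO denotes untrained knockout fish, and WT denotes untrained wild-type fish of the AB strain. The fish were adult males selected at 12 months of age. The knockout was made with Cas9 and 2 guides in exon 2 of *bves*, which gave 3 frameshift lines, and the methods do not say which line was sequenced. Each library pooled 2 muscle samples, no trained WT group was sequenced, and so the effects of genotype and training cannot be told apart in the comparison of *bves* KO-EX with WT.

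Each library held between 17422188 and 18860779 estimated counts. The targeted gene was read first. *bves* stood at 47.4, 11.4 and 49.6 CPM (counts scaled to library size after TMM correction for library composition) in the libraries labelled *bves* KO-EX, against 7.94, 17.5 and 6.70 CPM in *bves* KO and 39.5, 57.2 and 43.8 CPM in WT. Libraries 1 and 3 labelled *bves* KO-EX therefore lay within the WT range, library 2 lay within the *bves* KO range, and so the genes named below as called in that group are also given without libraries 1 and 3. Library 2 then stands alone for the group and is assumed to vary like the libraries of the other groups, so such a fit is no replicate check. A frameshift allele can still be transcribed, so the mRNA level alone does not give the genotype. The log2 fold change of *bves* in *bves* KO against WT was -2.13 (95% interval -3.36 to -0.90), with an adjusted p of 0.104 in edgeR's quasi-likelihood test and 0.00166 in DESeq2. All 6 skeletal muscle markers were detected in each group, with a summed level of 92148 to 116336 CPM in *bves* KO-EX, 105670 to 135304 CPM in *bves* KO and 83079 to 149248 CPM in WT. WT library 2 held that highest sum and had the lowest TMM factor (0.763), and mitochondrially encoded genes took 23.4% of the counts of *bves* KO-EX library 1, against 11.8% to 16.5% in the others.

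Members were expressed over a wide range. Of the 91 genes, 52 had a mean of at least 1 TPM in WT and 20 had at least 10 TPM, where TPM is the deposited value scaled for gene length and library size and the only scale used here between genes. The highest was *dtnba*, a dystrobrevin, the family that binds dystrophin and carries syntrophins. Its WT level was 65.5 ± 7.16 TPM (mean ± SD, n = 3, as throughout). *capns1a*, the small regulatory subunit of the classical calpains, followed at 49.1 ± 6.55 TPM, then the annexin *anxa1a* at 48.2 ± 2.00 TPM and dystrophin itself, *dmd*, at 46.5 ± 15.8 TPM. The WT libraries of *dtnba* (59.1 to 73.2 TPM) did not overlap those of *capns1a* (41.8 to 54.3 TPM), whereas *capns1a*, *anxa1a* (45.9 to 49.5 TPM) and *dmd* (34.6 to 64.5 TPM) overlapped one another. *anxa2a* (38.2 ± 5.81 TPM), *anxa6* (37.6 ± 7.76 TPM) and *sspn*, which encodes sarcospan (37.0 ± 11.2 TPM), came next and also overlapped. In the other role groups the leading members were *ehd2b* for ferlins, Ano5 and EHD proteins (24.8 ± 6.25 TPM), *plecb* for the adhesion linkers (14.7 ± 5.38 TPM), *dag1* for dystroglycan and its glycosylation (8.18 ± 2.55 TPM) and *itgb1bp1* for the other products (7.67 ± 0.396 TPM).

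**Figure D1:**
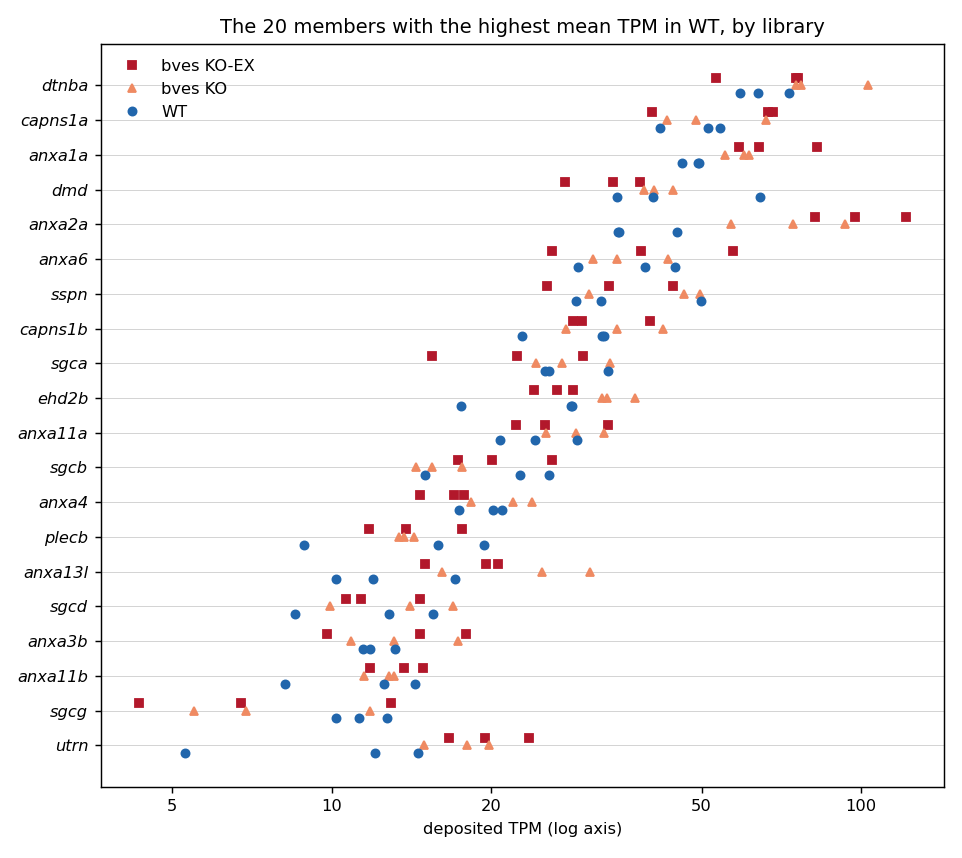
Deposited TPM on a log axis for the 20 members with the highest mean in WT, with 1 symbol per library: squares for *bves* KO-EX, triangles for *bves* KO and circles for WT. *dtnba* leads at 65.5 TPM in WT, and the *bves* KO-EX and *bves* KO libraries of *anxa2a* all lie to the right of its WT libraries, which average 38.2 TPM.

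Many members have a duplicate in zebrafish, and in several pairs 1 copy supplied nearly all of the message. *capn3b* accounted for 100% of the *capn3* TPM in each library, because *capn3a* had 0 counts in all 9. In mammals this calpain is largely a muscle protein. *dtnba* supplied at least 99.9% of its pair, *anxa2a* at least 99.9%, *anxa5b* at least 99.3%, *tln2a* at least 98.1% and *ehd2b* at least 95.9% in every library. Other pairs were shared more evenly. *plecb* supplied 69.7% to 77.9% of the plectin TPM, *capns1a* 53.6% to 69.2% of the small-subunit TPM, and *itgb1a* 41.3% to 69.1% of the TPM of the 4 integrin beta 1 genes. Reads of near-identical copies may have been divided between them by the authors' estimation, so shares of close copies are uncertain, including those of *itgb1b*, *itgb1b.2* and *itgb1b.1*, which are neighbours in RefSeq's list for GRCz12tu.

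A count was seen in some library for 88 of the 91 members. The exceptions were *capn3a*, *capn5b* and the syntrophin *sntg1*, at 0 counts in all 9 libraries, which allows a level of up to 3 counts per library, or 0.141 to 0.226 CPM, for counting error only. A filter on low counts left 74 members for testing, and the other 14 with counts (among them *anxa3a*, *anxa1d*, *anxa5a*, *anxa2b*, *capn8*, *capn12*, *pomgnt2*, *dtnbb*, *otofb*, *itgb1b.1*, *tln2b*, *dtnbp1b* and *SGCZ*) reached about 1.5 CPM at most.

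Few members passed the test in any comparison. In *bves* KO against WT, 0 of 74 were called at an adjusted p under 0.05 over all 14849 genes tested, against 1.11% of all genes. At an unadjusted p under 0.05 there were 12 members (16.2%, against 16.9% of all genes), and DESeq2 called 3 (4.05%, against 4.78%). Between *bves* KO-EX and *bves* KO, edgeR again called 0 of 74, against 1.64% of all genes. There, 13 members had an unadjusted p under 0.05 (17.6%, against 15.3%) and DESeq2 called 3 (4.05%, against 4.62%). Between *bves* KO-EX and WT, 3 members were called higher (4.05%, against 3.06% of all genes called higher) and 0 lower (against 2.34%). An unadjusted p under 0.05 was found for 22 members (29.7%, against 25.1%), and DESeq2 called 9 (12.2%, against 11.8%). In each comparison the members' share was thus near that of all genes.

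The fold changes were mostly small. Across members, the median log2 fold change was 0.13 in *bves* KO against WT, -0.02 in *bves* KO-EX against *bves* KO and 0.21 in *bves* KO-EX against WT, beside -0.03, 0.01 and 0.01 for all genes tested. The fold change was under 2-fold in either direction for 67, 68 and 60 of the 74 members in those 3 comparisons, in that order, and the 95% interval itself stayed within 2-fold for 39, 48 and 35 of them. Groups that did not overlap were more common than calls. In *bves* KO against WT, 16 members (21.6%) lay higher in all *bves* KO libraries, against 11.2% of all genes, and 6 (8.11%) lay lower, against 10.2%. The counts in *bves* KO-EX against *bves* KO were 12 higher (16.2%, against 12.2%) and 8 lower (10.8%, against 10.8%). For *bves* KO-EX against WT they were 18 higher (24.3%, against 15.0%) and 6 lower (8.11%, against 13%). These shares describe the chosen list and were not tested. On the deposited TPM, which carry no TMM correction, 8 of those 16 and 1 of those 6 also did not overlap in *bves* KO against WT, 7 of 12 and 4 of 8 in *bves* KO-EX against *bves* KO, and 12 of 18 and 1 of 6 in *bves* KO-EX against WT, a comparison of scales chosen after seeing the data. Where a separation named below is absent on TPM, it is marked as holding on CPM only. Overlap below is stated on CPM unless TPM is named. The gene lengths behind the TPM differed between libraries, as the ratio of *utrn* to *dmd* given below shows. A separation on TPM alone therefore need not be one of expression level. On TPM, 13 members lay higher and 2 lower in *bves* KO against WT, and 17 higher and 1 lower in *bves* KO-EX against WT. Some separated on TPM only. Among them, *utrn*, *anxa1a*, *itgb1bp1* and CAPN1 ENSDARG00000055338 lay above WT in both knockout groups.

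**Figure D2:**
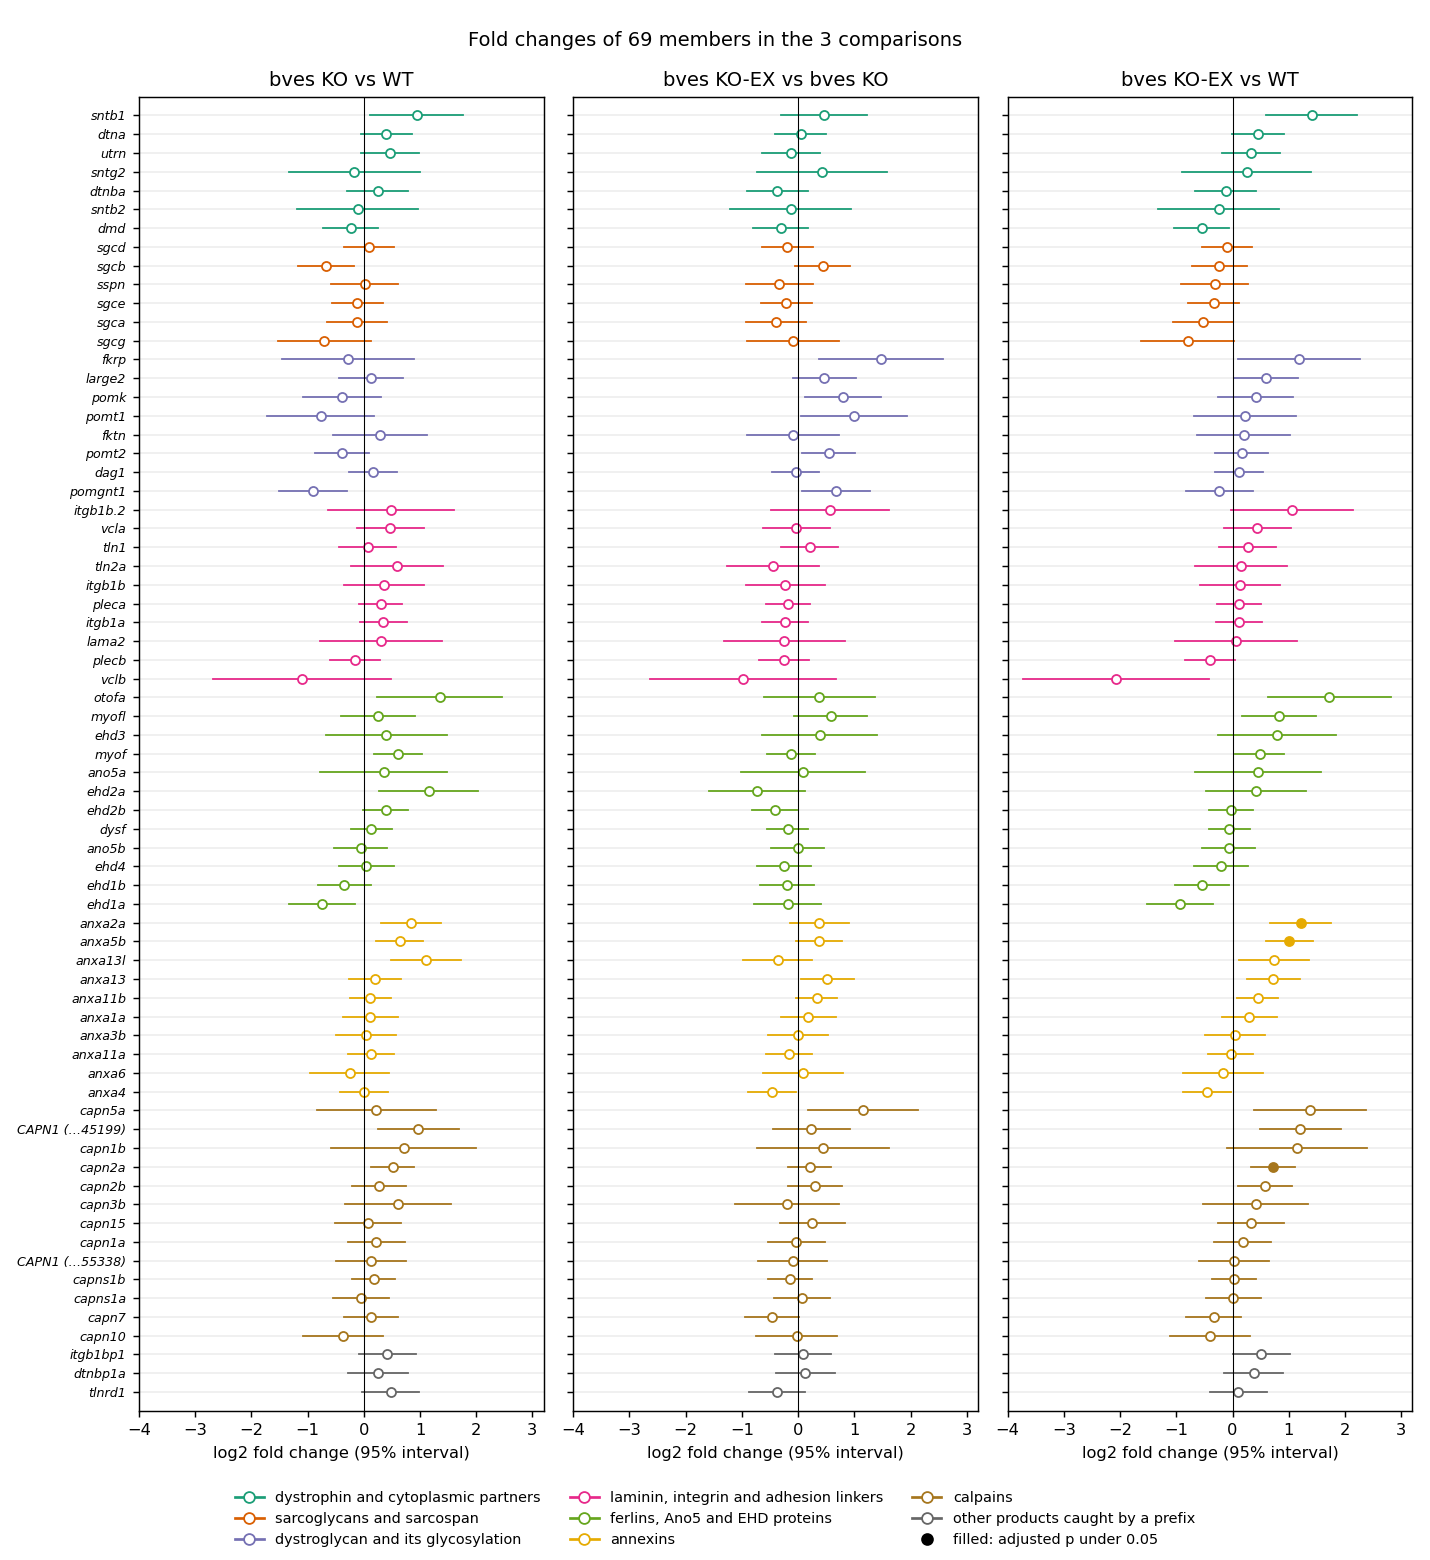
Log2 fold change with its 95% interval for 69 of the 74 tested members in the 3 comparisons, coloured by role group; the low-count genes *anxa1b*, *anxa1c*, *capn9* and *capn2l* are left out. Filled circles mark an adjusted p under 0.05, and the 3 that are filled (*anxa2a*, *anxa5b* and *capn2a*) all stand in *bves* KO-EX against WT.

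Of the 8 tested genes for dystrophin and its cytoplasmic partners, edgeR called 0 in each comparison. At an unadjusted p under 0.05 there was 1 in *bves* KO against WT (12.5%, against 16.9% of all genes). There were 0 in *bves* KO-EX against *bves* KO (against 15.3%) and 2 in *bves* KO-EX against WT (25%, against 25.1%). DESeq2 called 0, 0 and 1 (12.5%, against 11.8%) in that order. *dmd* stood at 84.8, 103 and 104 CPM in *bves* KO-EX, 107, 128 and 127 CPM in *bves* KO, and 177, 132 and 116 CPM in WT. The *bves* KO-EX libraries lay below all libraries of both other groups, while *bves* KO and WT overlapped. The separation from WT held on CPM only, since *dmd* ranged over 27.6 to 38.3 TPM in *bves* KO-EX and 34.6 to 64.5 TPM in WT. The log2 fold change was -0.54 in *bves* KO-EX against WT (interval -1.03 to -0.05, adjusted p 0.159), -0.31 in *bves* KO-EX against *bves* KO (-0.80 to 0.18, adjusted p 0.585) and -0.23 in *bves* KO against WT (-0.72 to 0.26, adjusted p 0.622). None of these differences passed the test. *utrn* encodes utrophin, the dystrophin relative that in mammals is found at the neuromuscular junction. It stood at 31.5, 33.2 and 25.8 CPM in *bves* KO-EX, 32.7, 29.8 and 36.9 CPM in *bves* KO, and 25.3, 15.9 and 30.4 CPM in WT. WT library 3 fell among the knockout libraries on CPM, whereas on TPM all knockout libraries lay above WT. The log2 fold change was 0.34 in *bves* KO-EX against WT (-0.18 to 0.85, adjusted p 0.402) and 0.47 in *bves* KO against WT (-0.05 to 0.99, adjusted p 0.331).

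The ratio of utrophin to dystrophin within a library was examined after the values were seen, and is given without a test. On TPM it was 0.704, 0.617 and 0.490 in *bves* KO-EX, 0.443, 0.385 and 0.450 in *bves* KO, and 0.188, 0.153 and 0.359 in WT. On this scale the 3 groups did not overlap. On CPM, which takes no account of length, the ratio was 0.371, 0.324 and 0.247 in *bves* KO-EX, 0.305, 0.233 and 0.290 in *bves* KO, and 0.143, 0.120 and 0.262 in WT. WT library 3 then overlapped both knockout groups. A fixed length per gene would rescale this ratio by the same factor in every library. From CPM to TPM it went from 0.143 to 0.188 in WT library 1 and from 0.371 to 0.704 in *bves* KO-EX library 1. The lengths behind the TPM therefore differed between libraries. Their part in the separation on TPM was not tested. Other TPM ratios to *dmd*, also untested, lay above WT in *bves* KO-EX. For *dtnba* the ratio was 1.92 to 2.22 in *bves* KO-EX, 1.85 to 2.33 in *bves* KO and 0.992 to 1.81 in WT. For *dag1* it was 0.244 to 0.313 in *bves* KO-EX, 0.1997 to 0.257 in *bves* KO and 0.158 to 0.2104 in WT. The *dag1* ratio in *bves* KO overlapped both other groups. A ratio above WT in *bves* KO-EX was thus not particular to *utrn*.

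**Figure D3:**
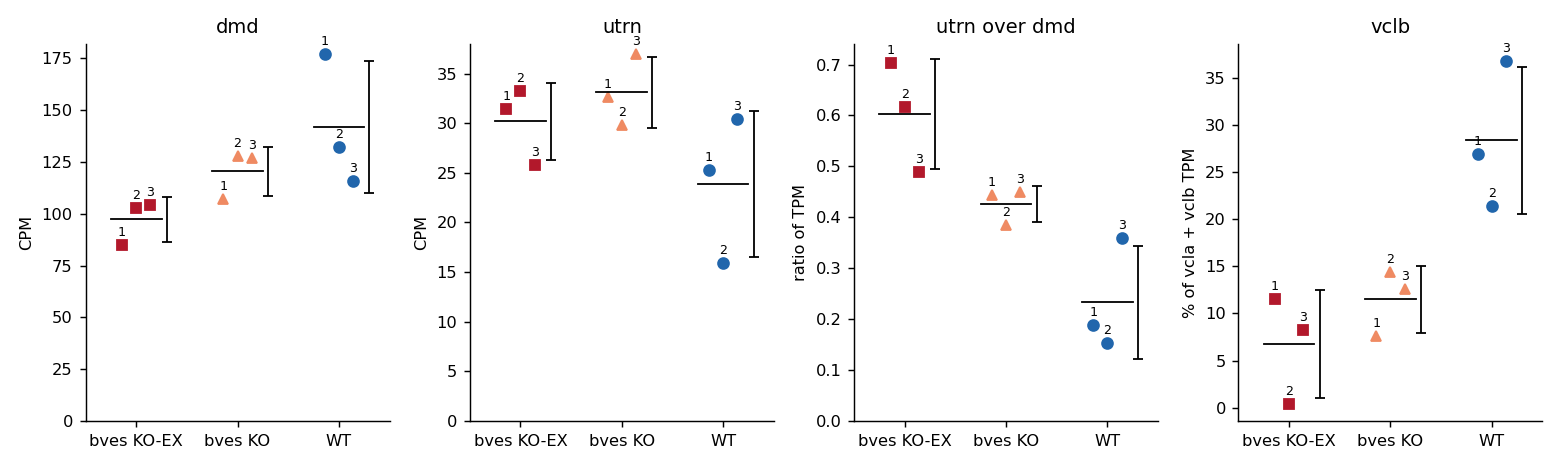
From left to right, *dmd* and *utrn* in CPM, the ratio of *utrn* to *dmd* in TPM, and the share of *vclb* in the summed TPM of the vinculin pair, by library. Numbers are library numbers, horizontal lines are means and bars are SD (n = 3). The ratio separates the groups on TPM but not on CPM, with WT library 3 at 0.359 TPM closest to *bves* KO, and *vclb* makes up 21.4% or more of its pair in WT only.

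The dystrobrevins and syntrophins join dystrophin to signalling proteins. *dtnba* averaged 235 ± 34.6 CPM in *bves* KO-EX, 304 ± 50.6 CPM in *bves* KO and 256 ± 56.6 CPM in WT. Its libraries overlapped on CPM in all 3 comparisons, with adjusted p values of 0.557 to 0.793 in edgeR. On TPM the *bves* KO libraries lay above WT. *dtna*, a related dystrobrevin, stood at 20.3, 21.7 and 34.2 CPM in *bves* KO-EX, 24.3, 24.8 and 24.7 CPM in *bves* KO, and 19.9, 18.3 and 17.7 CPM in WT. Both knockout groups lay above WT, for *bves* KO-EX on CPM only, at adjusted p values of 0.207 for *bves* KO-EX and 0.346 for *bves* KO. The syntrophin *sntb1*, named after its values were seen, was scarce, with 27, 20 and 27 counts in *bves* KO-EX, 16, 18 and 17 in *bves* KO, and 9, 7 and 10 in WT. All knockout libraries lay above WT, yet the log2 fold change of 1.41 in *bves* KO-EX against WT (0.60 to 2.22) had an adjusted p of 0.0508 in edgeR and 0.0421 in DESeq2. In *bves* KO against WT it was 0.94 (0.12 to 1.77, adjusted p 0.236). The syntrophins *sntb2* and *sntg2* overlapped between groups throughout.

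Of the sarcoglycans and sarcospan, 6 of 7 were tested and 0 were called in any comparison by edgeR or by DESeq2. At an unadjusted p under 0.05 there was 1, *sgcb*, in *bves* KO against WT only (16.7%, against 16.9% of all genes). *sgcb* encodes beta-sarcoglycan and stood at 55.5, 53.6 and 82.8 CPM in *bves* KO-EX, 40.0, 52.3 and 49.7 CPM in *bves* KO, and 64.4, 81.3 and 79.9 CPM in WT. The *bves* KO libraries lay below all WT libraries (log2 fold change -0.67, interval -1.16 to -0.17, adjusted p 0.173) and below all *bves* KO-EX libraries (0.43 for *bves* KO-EX against *bves* KO, -0.06 to 0.93, adjusted p 0.399). Both separations held on CPM only. On TPM, the lowest *bves* KO-EX library (17.3) and the lowest WT library (15.0) fell inside the *bves* KO range of 14.4 to 17.6.

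Gamma-sarcoglycan, *sgcg*, varied widely within the knockout groups. It stood at 50.9, 133 and 74.6 CPM in *bves* KO-EX, 137, 64.4 and 74.7 CPM in *bves* KO, and 135, 180.0 and 133 CPM in WT. In each knockout group 2 libraries were low and 1 was near the lower WT libraries, so that *bves* KO overlapped WT and *bves* KO-EX library 2 lay only just below it, and on CPM only. The log2 fold change was -0.80 in *bves* KO-EX against WT (-1.62 to 0.03, adjusted p 0.214) and -0.70 in *bves* KO against WT (-1.52 to 0.12, adjusted p 0.362). Alpha-sarcoglycan, *sgca*, averaged 35.3 ± 7.49 CPM in *bves* KO-EX, 46.6 ± 6.16 CPM in *bves* KO and 50.7 ± 13.2 CPM in WT. Its libraries in *bves* KO-EX lay below those in *bves* KO on CPM only (-0.40, -0.93 to 0.13, adjusted p 0.493) and overlapped WT (-0.52, -1.05 to 0.01, adjusted p 0.208). Delta-sarcoglycan, *sgcd*, ranged from 92.3 to 97.1 CPM in *bves* KO-EX, 84.6 to 128 CPM in *bves* KO and 96.3 to 105 CPM in WT, with intervals of the log2 fold change within -0.64 and 0.55 in all 3 comparisons. Epsilon-sarcoglycan, *sgce*, averaged 14.2 ± 1.62 CPM in *bves* KO-EX, 16.5 ± 2.56 CPM in *bves* KO and 17.9 ± 3.87 CPM in WT. *sspn* averaged 29.2 ± 8.89 CPM in *bves* KO-EX, 36.8 ± 9.28 CPM in *bves* KO and 36.4 ± 5.53 CPM in WT. The log2 fold change in *bves* KO-EX against WT was below 0 for all 6 tested genes of the group (median -0.33), except that *sgcd* stood at 0.01 when libraries were scaled by total counts, a scaling that moved the median of all genes by 0.11.

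Dystroglycan is made from *dag1*, and its laminin-binding sugar chain is built by enzymes that include *pomt1*, *pomt2*, *pomgnt1*, *pomk*, *fktn*, *fkrp* and *large2*. *dag1* stood at 52.0, 47.9 and 62.5 CPM in *bves* KO-EX, 46.8, 56.5 and 64.4 CPM in *bves* KO, and 53.9, 48.4 and 47.1 CPM in WT. The groups overlapped in each comparison, and the interval of the log2 fold change was -0.30 to 0.54 in *bves* KO-EX against WT and -0.26 to 0.59 in *bves* KO against WT. Among the 8 tested genes of the group 0 were called by edgeR or DESeq2 in any comparison. At an unadjusted p under 0.05 there was 1 in *bves* KO against WT (12.5%, against 16.9% of all genes). There were 2 in *bves* KO-EX against WT (25%, against 25.1%).

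Of the 8 genes, 5 in *bves* KO-EX against *bves* KO had an unadjusted p under 0.05 (62.5%, against 15.3% of all genes), all with a log2 fold change above 0. It was above 0 for 6 of the 8 and below 0 for the other two, *dag1* and *fktn*, and the group's median log2 fold change was 0.61, beside 0.01 for all genes. None was called, with adjusted p values of 0.179 to 0.294 for those 5 genes. The share describes the chosen group and was not tested. The list of other pathway genes given below holds 10 more tested genes of dystroglycan glycosylation. Of these, 1 had an unadjusted p under 0.05 in the same edgeR comparison (10%). Their log2 fold change was above 0 for 5 and below 0 for 5, with a median of -0.02. *fkrp*, whose product adds ribitol phosphate to the chain in mammals, was at 0.778, 0.797 and 1.52 CPM in *bves* KO-EX, 0.483, 0.346 and 0.272 CPM in *bves* KO, and 0.527, 0.226 and 0.557 CPM in WT. The *bves* KO-EX libraries lay above both other groups, with a log2 fold change of 1.47 against *bves* KO (0.36 to 2.58, adjusted p 0.179) and 1.19 against WT (0.10 to 2.27, adjusted p 0.164), on 3 to 28 counts per library. *pomt1*, *pomt2* and *pomk*, named after their values were seen, also did not overlap between the knockout groups, *pomt1* and *pomk* on CPM only, with log2 fold changes of 0.99, 0.55 and 0.80 in that order. The first and second add the initial mannose and the third phosphorylates it. *pomgnt1*, the enzyme that adds N-acetylglucosamine to the O-mannose core, stood at 3.78, 5.86 and 8.21 CPM in *bves* KO-EX, 4.02, 3.81 and 3.32 CPM in *bves* KO, and 7.82, 7.08 and 6.08 CPM in WT. All *bves* KO libraries lay below WT (log2 fold change -0.91, -1.51 to -0.31, adjusted p 0.132), and *bves* KO-EX overlapped both groups. *large2*, of the enzymes that extend the chain, averaged 6.43 ± 0.980 CPM in *bves* KO-EX, 4.65 ± 1.35 CPM in *bves* KO and 4.27 ± 0.697 CPM in WT, and its *bves* KO-EX libraries lay above WT (log2 fold change 0.59, 0.03 to 1.16, adjusted p 0.181). *fktn* overlapped throughout, at 1.86 ± 0.379 CPM in *bves* KO-EX, 1.98 ± 0.640 CPM in *bves* KO and 1.65 ± 0.745 CPM in WT.

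Laminin alpha 2, integrin beta 1 and the linkers talin, vinculin and plectin connect the fibre to its matrix beside the dystrophin complex. Of 10 tested, 0 were called by edgeR in any comparison. At an unadjusted p under 0.05 there was 1, *vclb*, in *bves* KO-EX against WT (10%, against 25.1% of all genes). DESeq2 called it (adjusted p 0.0282), and its 1 call was 10% of the group, against 11.8% of all genes. *vclb*, the minor vinculin copy, stood at 2.84, 0.141 and 3.32 CPM in *bves* KO-EX, 2.41, 5.02 and 4.85 CPM in *bves* KO, and 11.3, 5.65 and 9.16 CPM in WT. Both knockout groups lay below WT, *bves* KO on CPM only, and *bves* KO-EX library 2 was far below the rest. Without libraries 1 and 3 labelled *bves* KO-EX, the adjusted p against WT was 0.0254 in edgeR, a value that rests on 3 counts in that 1 library with its spread taken from the other groups. The log2 fold change was -2.07 in *bves* KO-EX against WT (-3.72 to -0.42, adjusted p 0.124) and -1.09 in *bves* KO against WT (-2.67 to 0.49, adjusted p 0.451). As a share of the vinculin TPM, which was examined after the values were seen, *vclb* made up 11.5%, 0.414% and 8.27% in *bves* KO-EX, 7.56%, 14.4% and 12.6% in *bves* KO, and 26.9%, 21.4% and 36.8% in WT. *vcla*, the main copy, stood at 62.5 ± 16.2 CPM in *bves* KO-EX, 63.8 ± 4.67 CPM in *bves* KO and 46.0 ± 15.7 CPM in WT, with overlapping libraries.

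*plecb*, the more abundant plectin copy, stood at 146, 153 and 136 CPM in *bves* KO-EX, 172, 181 and 167 CPM in *bves* KO, and 224, 174 and 179.8 CPM in WT. The *bves* KO-EX libraries lay below both other groups on CPM only (log2 fold change -0.41 against WT, -0.85 to 0.04, adjusted p 0.234). *lama2* encodes the laminin chain missing in a congenital dystrophy in humans. It averaged 5.38 ± 1.88 CPM in *bves* KO-EX, 6.38 ± 2.45 CPM in *bves* KO and 5.11 ± 3.44 CPM in WT, and its interval in *bves* KO against WT was wide (-0.78 to 1.39). The tested talins, integrin beta 1 genes, *vcla* and *pleca* had log2 fold changes between -0.44 and 1.06 in the 3 comparisons. All *bves* KO libraries lay above WT for *itgb1a* on both scales and for *itgb1b.2* on CPM only. Unlike *plecb*, *pleca* lay above WT in both knockout groups, on CPM only. Its *bves* KO-EX libraries lay below those of *bves* KO, also on CPM only.

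Ferlins are membrane-tethered calcium sensors, and EHD proteins reshape membranes. Of the 12 tested members of this group edgeR called 0 in each comparison. At an unadjusted p under 0.05 there were 4 in *bves* KO against WT (33.3%, against 16.9% of all genes). There was 1 in *bves* KO-EX against *bves* KO (8.33%, against 15.3%) and 5 in *bves* KO-EX against WT (41.7%, against 25.1%). DESeq2 called 0, 0 and 1 in that order (8.33% in the last, against 11.8%). These shares were not tested. *dysf*, which encodes dysferlin, stood at 39.7, 42.4 and 42.8 CPM in *bves* KO-EX, 44.2, 47.0 and 51.1 CPM in *bves* KO, and 45.1, 38.9 and 46.2 CPM in WT. The knockout groups overlapped WT, and the intervals were narrow, from -0.42 to 0.31 in *bves* KO-EX against WT and from -0.24 to 0.49 in *bves* KO against WT. The anoctamins *ano5b* (4.20 ± 0.408 CPM in *bves* KO-EX, 4.22 ± 0.642 CPM in *bves* KO and 4.38 ± 0.489 CPM in WT) and *ano5a* (1.37 ± 0.729, 1.30 ± 0.742 and 1.00 ± 0.378 CPM in the same order) overlapped throughout. *ehd2b* averaged 77.4 ± 7.27 CPM in *bves* KO-EX, 103 ± 6.78 CPM in *bves* KO and 78.7 ± 4.38 CPM in WT, so that *bves* KO lay above both other groups. Its log2 fold change was -0.42 in *bves* KO-EX against *bves* KO (-0.81 to -0.02, adjusted p 0.297) and 0.39 in *bves* KO against WT (-0.01 to 0.79, adjusted p 0.299).

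Other members of the group shifted further on lower counts. *ehd1a*, of the endocytic recycling EHD proteins, stood at 5.39, 4.74 and 4.24 CPM in *bves* KO-EX, 5.79, 3.75 and 6.81 CPM in *bves* KO, and 7.72, 7.76 and 11.9 CPM in WT. Both knockout groups lay below WT on CPM only, with a log2 fold change of -0.93 in *bves* KO-EX against WT (-1.52 to -0.34, adjusted p 0.0665 in edgeR and 0.0248 in DESeq2). *otofa*, an otoferlin gene, stood at 0.778, 1.03 and 0.761 CPM in *bves* KO-EX, 0.804, 0.692 and 0.490 CPM in *bves* KO, and 0.192, 0.151 and 0.405 CPM in WT. Both knockout groups lay above WT, and the log2 fold change was 1.72 in *bves* KO-EX (0.63 to 2.81, adjusted p 0.0674) and 1.35 in *bves* KO (0.24 to 2.46, adjusted p 0.216). Without WT library 3 the difference of *bves* KO-EX from WT passed (2.25, adjusted p 0.0444). The separation held on CPM only, since on TPM the libraries of *otofa* in *bves* KO-EX (0.10 to 0.50 TPM) and in *bves* KO (0.07 to 0.12 TPM) overlapped those of WT (0.03 to 0.17 TPM). *ehd2a*, the minor copy of its pair, averaged 1.07 ± 0.298 CPM in *bves* KO-EX, 1.79 ± 0.674 CPM in *bves* KO and 0.793 ± 0.181 CPM in WT, with a log2 fold change of 1.15 in *bves* KO against WT (0.28 to 2.03, adjusted p 0.181). *myof*, which encodes myoferlin and is named after its values were seen, averaged 5.65 ± 0.839 CPM in *bves* KO-EX, 6.16 ± 0.294 CPM in *bves* KO and 4.05 ± 0.160 CPM in WT. Its knockout libraries all lay above WT, with a log2 fold change of 0.48 in *bves* KO-EX (adjusted p 0.155) and 0.61 in *bves* KO (adjusted p 0.156). *myofl*, a related ferlin, also lay above WT in *bves* KO-EX, at 7.03 ± 0.908 CPM in *bves* KO-EX, 4.72 ± 1.76 CPM in *bves* KO and 3.93 ± 1.12 CPM in WT (adjusted p 0.117 against WT). *ehd1b*, *ehd3* and *ehd4* overlapped between *bves* KO-EX and WT, though *ehd1b* was lower there at an unadjusted p under 0.05. All *bves* KO-EX libraries of *ehd3* lay above those of *bves* KO on both scales, and it was not called.

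Annexins bind membrane phospholipids when calcium rises, and 2 of the 12 tested rose in *bves* KO-EX against WT, *anxa2a* and *anxa5b*. Those 2 make up 16.7% of the group, against 3.06% of all genes called higher. In *bves* KO-EX against WT, 7 had an unadjusted p under 0.05 (58.3%, against 25.1% of all genes), 6 of them higher and 1 lower. DESeq2 called 4 there (33.3%, against 11.8%). None of the 12 was called in the other comparisons by edgeR. In *bves* KO against WT, 3 had an unadjusted p under 0.05 (25%, against 16.9%), and DESeq2 called 3 (25%, against 4.78%). In *bves* KO-EX against *bves* KO, 4 had such a p (33.3%, against 15.3%), 3 of them higher and 1, *anxa4*, lower. DESeq2 called 2 there (16.7%, against 4.62%), the low-count genes *anxa1b* and *anxa1c* described below. These shares describe the chosen group and were not tested. *anxa2a* stood at 119.7, 142 and 134 CPM in *bves* KO-EX, 97.9, 83.2 and 123 CPM in *bves* KO, and 41.6, 70.0 and 59.4 CPM in WT. Every knockout library lay above every WT library, and the 2 knockout groups overlapped. *anxa2a* was 2.31-fold higher in *bves* KO-EX than in WT (log2 fold change 1.21, 0.67 to 1.75, adjusted p 0.0232). In *bves* KO against WT the log2 fold change was 0.83 (0.30 to 1.37), not called in edgeR (adjusted p 0.124) and called in DESeq2 (0.0257). Between *bves* KO-EX and *bves* KO it was 0.38 (-0.15 to 0.91, adjusted p 0.522).

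*anxa5b*, which encodes an annexin A5, stood at 38.0, 32.8 and 34.5 CPM in *bves* KO-EX, 24.9, 28.4 and 28.1 CPM in *bves* KO, and 13.4, 19.7 and 19.3 CPM in WT. The 3 groups did not overlap, and the order of their levels was *bves* KO-EX, *bves* KO, WT. It was 2.01-fold higher in *bves* KO-EX than in WT (log2 fold change 1.01, 0.59 to 1.43, adjusted p 0.0185). The difference of 0.64 between *bves* KO and WT (0.22 to 1.05) had an adjusted p of 0.127 in edgeR and 0.0468 in DESeq2, and that of 0.37 between *bves* KO-EX and *bves* KO (-0.04 to 0.78) had an adjusted p of 0.386.

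Both annexin calls depended on single libraries. Without WT library 1 the log2 fold change in *bves* KO-EX against WT was 1.02 for *anxa2a* (adjusted p 0.0752) and 0.84 for *anxa5b* (0.0578). Without *bves* KO-EX library 1 it was 1.28 (0.0526) and 0.96 (0.0574) for those genes, and without *bves* KO-EX library 3 it was 1.19 (0.0771) and 1.02 (0.0642). With libraries 1 and 3 labelled *bves* KO-EX both left out, which have *bves* at the WT level, it was 1.29 (0.143) and 0.89 (0.191). The fold change stayed positive each time and the adjusted p moved past 0.05.

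Markers of other cell types differed in the same comparison. Of 5 fibroblast markers, all of them detected, edgeR called *col1a1a*, *col1a2* and *postnb* higher in *bves* KO-EX against WT. It called *col1a1a* also in *bves* KO against WT, and *dcn* in neither. In *bves* KO against WT, DESeq2 called *col1a1a* and also *col1a2* (log2 fold change 1.11, adjusted p 0.00110) and *postnb* (0.96, 0.00750) higher. The collagen chain *col1a1a* stood at 347 to 521 CPM in *bves* KO-EX, 233 to 383 CPM in *bves* KO and 91.8 to 134 CPM in WT. The receptor gene *pdgfra* went the other way, at 10.2, 12.2 and 10.5 CPM in *bves* KO-EX, 8.63, 8.25 and 7.19 CPM in *bves* KO, and 15.1, 12.1 and 17.4 CPM in WT. All *bves* KO libraries of *pdgfra* lay below WT on CPM only (log2 fold change -0.89, adjusted p 0.0560 in edgeR and 0.00375 in DESeq2). The summed level of the 5 markers, most of it from the collagen chains and *postnb*, was 945 to 1239 CPM in *bves* KO-EX, 679 to 1049 CPM in *bves* KO and 349.8 to 478 CPM in WT. The macrophage receptor *marco* was called higher in *bves* KO-EX against WT (2.53-fold, adjusted p 0.0163), at 16.96, 23.7 and 18.8 CPM in *bves* KO-EX, 11.7, 10.2 and 10.5 CPM in *bves* KO, and 9.73, 8.59 and 5.22 CPM in WT. The erythrocyte anion exchanger *slc4a1a* was also called (2.92-fold, 0.0216), at 22.6, 9.94 and 23.5 CPM in *bves* KO-EX, 9.22, 6.46 and 8.61 CPM in *bves* KO, and 6.28, 7.08 and 5.82 CPM in WT. Without libraries 1 and 3 labelled *bves* KO-EX, a setting applied to markers after seeing the data, the log2 fold changes against WT were 2.04 for *col1a1a* (adjusted p 0.0559), 1.82 for *col1a2* (0.0705), 1.102 for *postnb* (0.212), 1.58 for *marco* (0.0805) and 0.62 for *slc4a1a* (0.351). In *bves* KO-EX against WT with all libraries, *marco* was the only edgeR call among 5 macrophage markers. *slc4a1a* was the only edgeR call among 7 tested erythrocyte genes. DESeq2 called both there and also *grn1* of the macrophage markers (adjusted p 0.0342) and an *hbba1* gene of the erythrocyte markers (0.0478). In *bves* KO-EX against *bves* KO, DESeq2 called *marco* (0.0355) and *slc4a1a* (0.0159), and edgeR called neither. The summed macrophage markers overlapped, at 137 to 286 CPM in *bves* KO-EX and 119 to 196 CPM in WT. The summed erythrocyte markers overlapped too, at 501 to 892 CPM in *bves* KO-EX and 340 to 692 CPM in WT. The part of fibroblast, macrophage and blood RNA in the annexin results was not tested. In whole muscle, more cells of a type and more RNA per cell cannot be told apart.

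**Figure D4:**
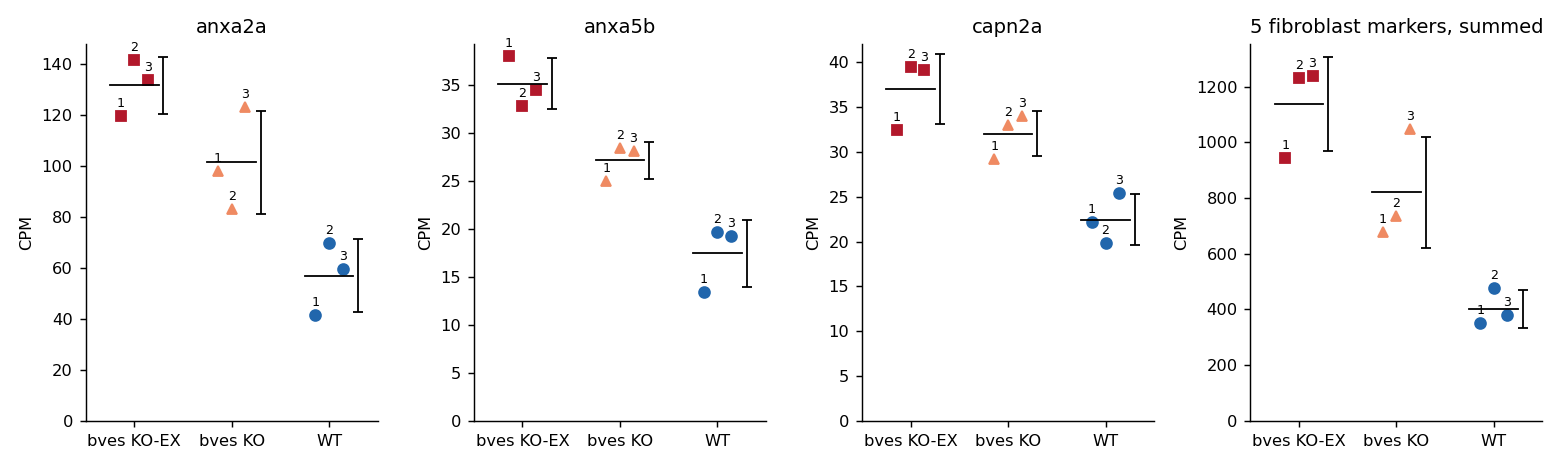
CPM by library of *anxa2a*, *anxa5b* and *capn2a*, the 3 members called higher in *bves* KO-EX against WT, and at the right the summed CPM of 5 fibroblast markers. Numbers are library numbers, horizontal lines are means and bars are SD (n = 3). In all 4 plots the *bves* KO-EX and *bves* KO libraries lie above all 3 WT libraries.

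In *bves* KO-EX against WT the remaining annexins differed less than *anxa2a* and *anxa5b*, apart from genes near the detection limit. In *bves* KO against WT, *anxa13l* differed more than either of them. *anxa1a*, the most abundant annexin, averaged 66.2 ± 3.92 CPM in *bves* KO-EX, 58.3 ± 0.648 CPM in *bves* KO and 53.8 ± 17.4 CPM in WT, with a log2 fold change of 0.30 in *bves* KO-EX against WT (-0.19 to 0.80, adjusted p 0.430). *anxa13l*, named after its values were seen, stood at 24.1, 17.9 and 12.1 CPM in *bves* KO-EX, 29.4, 15.8 and 24.2 CPM in *bves* KO, and 9.49, 11.6 and 11.3 CPM in WT. Both knockout groups lay above WT on CPM only, and the 2.14-fold difference of *bves* KO from WT (log2 interval 0.48 to 1.72) had an adjusted p of 0.0925 in edgeR and 0.0191 in DESeq2. On TPM, WT library 3 (17.1) fell among the libraries of both knockout groups. *anxa13* and *anxa11b*, named after their values were seen, lay higher in every *bves* KO-EX library than in either other group, *anxa11b* on CPM only, and *anxa13* stood at 41.0 ± 6.53 CPM in *bves* KO-EX, 28.6 ± 5.51 CPM in *bves* KO and 24.8 ± 3.89 CPM in WT, with an adjusted p against WT of 0.0693 in edgeR and 0.0265 in DESeq2. *anxa4* stood lower in all *bves* KO-EX libraries than in the other groups, for WT on CPM only, at 15.6 to 20.9 CPM in *bves* KO-EX, 23.9 to 27.7 CPM in *bves* KO and 22.6 to 31.6 CPM in WT (adjusted p 0.269 against *bves* KO and 0.167 against WT). *anxa6*, *anxa11a* and *anxa3b* overlapped between groups in each comparison.

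A set of low members was highest in the same library, *bves* KO-EX library 1. *anxa1c* had 166, 57 and 3 counts in *bves* KO-EX, 1, 1 and 1 in *bves* KO, and 17, 1 and 9 in WT. *anxa1b* had 65, 35 and 1 counts in *bves* KO-EX, 0, 1 and 1 in *bves* KO, and 17, 0 and 7 in WT. *anxa1d*, *anxa1c* and *anxa1b* are consecutive protein-coding genes in RefSeq's list for GRCz12tu, and *anxa1a* is not their neighbour there. The calpains *capn9* (70, 15 and 1 counts in *bves* KO-EX, 2, 1 and 3 in *bves* KO, and 20, 1 and 12 in WT) and *capn2l* (47, 42 and 2 counts in *bves* KO-EX, 2, 10 and 9 in *bves* KO, and 11, 3 and 17 in WT), named after their values were seen, were likewise highest in that library. *bves* KO-EX library 2 came next for all of them except *capn9*, for which WT library 1 did. None of the 4 was called by edgeR, and their fitted fold changes against *bves* KO rest on 0 to 10 counts per library in that group. In *bves* KO-EX against *bves* KO the adjusted p in edgeR was 0.0843 for *anxa1c*, 0.121 for *anxa1b*, 0.196 for *capn9* and 0.326 for *capn2l*, and DESeq2 called the first 3 (0.000179, 0.0116 and 0.0426). Without *bves* KO-EX library 3, *anxa1c* passed in edgeR against *bves* KO (0.0333) and against WT (0.0382).

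Of 7 skin epithelium markers, all of them detected, 5 (*krt5*, *krt91*, *epcam*, *cdh1* and *cldni*) were also highest in *bves* KO-EX library 1, *krt4* was highest in its library 2 and *tp63* in its library 3. The epidermal keratin *krt5* was at 236, 72.5 and 24.5 CPM in *bves* KO-EX, 0.858, 1.38 and 4.90 CPM in *bves* KO, and 75.4, 3.24 and 29.5 CPM in WT. The 7 markers summed to 524, 311 and 168 CPM in *bves* KO-EX, 138 to 180.3 CPM in *bves* KO and 139 to 250.1 CPM in WT. edgeR called 0 of the 7 in each comparison. At an unadjusted p under 0.05 there were 3 of the 7 in *bves* KO against WT (against 16.9% of all genes). Of these, *krt4* and *tp63* were higher and *krt5* was lower. There were 5 in *bves* KO-EX against *bves* KO (against 15.3%) and 3 in *bves* KO-EX against WT (against 25.1%), all of them higher. Between *bves* KO-EX and *bves* KO, *krt4* and *tp63* hardly differed, at log2 fold changes of 0.05 and 0.003. DESeq2 called 1, 3 and 1 of the 7 in that order, against 4.78%, 4.62% and 11.8% of all genes. These were *krt5*, lower, in *bves* KO against WT, then *cdh1*, *epcam* and *krt5*, higher, and then *krt4*, higher. *krt5* had a DESeq2 adjusted p of 0.000486 in *bves* KO-EX against *bves* KO. These counts describe the chosen markers and were not tested. The part of skin RNA in the levels of these 4 members was not tested.

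**Figure D5:**
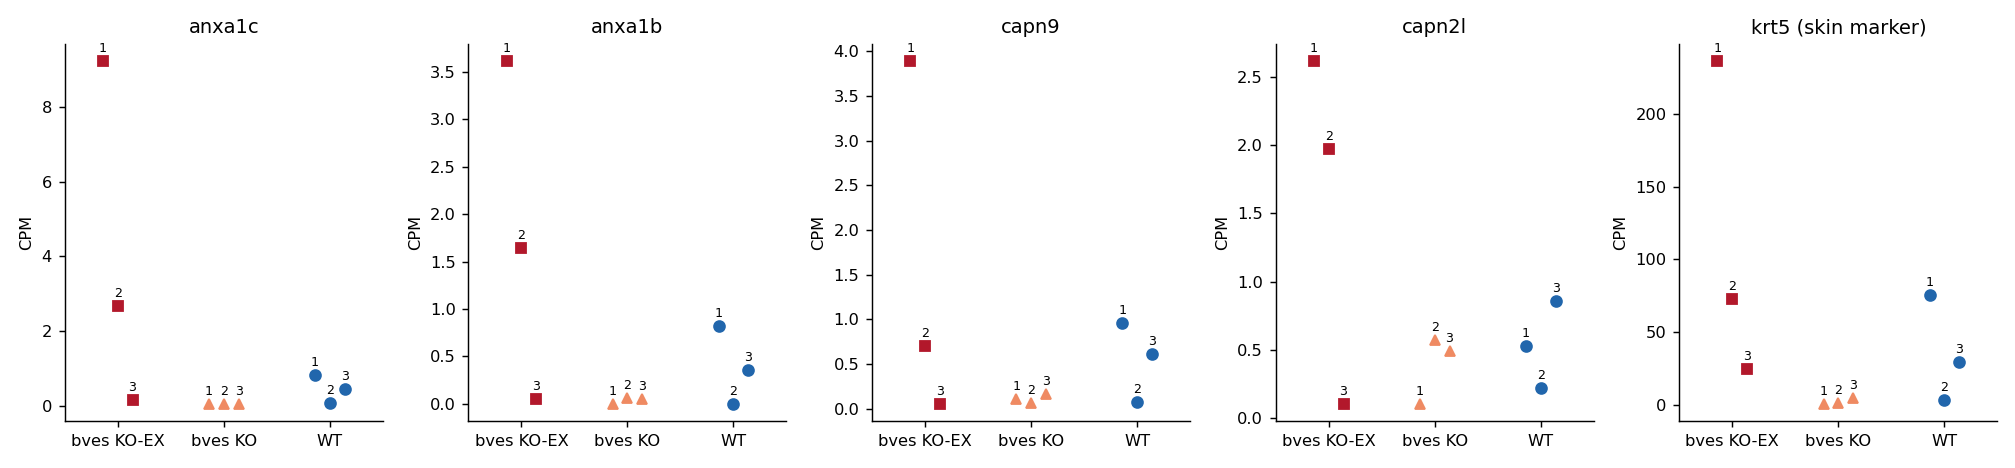
CPM by library of *anxa1c*, *anxa1b*, *capn9* and *capn2l* and of the skin keratin *krt5*. Numbers are library numbers. *bves* KO-EX library 1 is highest in all 5 plots, and the 3 *bves* KO libraries are near 0 for *anxa1c*, *anxa1b*, *capn9* and *krt5*.

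Of the calpains, 15 of 19 were tested, and *capn2a* alone was called, higher in *bves* KO-EX against WT (6.67%, against 3.06% of all genes called higher). At an unadjusted p under 0.05 there were 2 in *bves* KO against WT (13.3%, against 16.9% of all genes). There were 3 in *bves* KO-EX against *bves* KO (20%, against 15.3%) and 4 in *bves* KO-EX against WT (26.7%, against 25.1%). DESeq2 called 0, 1 (6.67%, against 4.62%) and 2 (13.3%, against 11.8%) in that order. *capn2a*, a catalytic subunit of the classical calpain type, stood at 32.5, 39.5 and 39.1 CPM in *bves* KO-EX, 29.2, 33.0 and 34.0 CPM in *bves* KO, and 22.2, 19.8 and 25.4 CPM in WT. All knockout libraries lay above all WT libraries. It rose 1.65-fold in *bves* KO-EX against WT (log2 fold change 0.72, 0.34 to 1.11, adjusted p 0.0402), with 0.51 in *bves* KO against WT (0.13 to 0.90, adjusted p 0.177) and 0.21 in *bves* KO-EX against *bves* KO (-0.17 to 0.59, adjusted p 0.654). The call was fragile. It was kept under 4 of 17 other settings, and of the 9 fits that left out 1 library each it was kept in 1, the fit without WT library 3. Without any other single library the log2 fold change was 0.65 to 0.82, with an adjusted p of 0.0526 to 0.127, and without libraries 1 and 3 labelled *bves* KO-EX it was 0.79 (adjusted p 0.198). The markers of other cell types given for the annexins differed in the same comparison as *capn2a*, and their part was not tested.

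*capn3b*, the muscle calpain whose human counterpart is mutated in a limb-girdle dystrophy, varied widely within groups. It stood at 17.6, 13.4 and 27.9 CPM in *bves* KO-EX, 15.8, 21.5 and 30.0 CPM in *bves* KO, and 9.16, 25.1 and 10.2 CPM in WT. WT library 2 overlapped both knockout groups, and the log2 fold change was 0.41 in *bves* KO-EX against WT (-0.52 to 1.35, adjusted p 0.574) and 0.61 in *bves* KO against WT (-0.33 to 1.54, adjusted p 0.485). The regulatory subunit *capns1a* averaged 40.9 ± 4.30 CPM in *bves* KO-EX, 39.2 ± 2.83 CPM in *bves* KO and 40.5 ± 12.9 CPM in WT, with a log2 fold change of 0.02 in *bves* KO-EX against WT (-0.48 to 0.51). The calpain inhibitor *cast*, encoding calpastatin, was at 302, 314 and 317 CPM in *bves* KO-EX, 357, 373 and 336 CPM in *bves* KO, and 489, 343 and 297 CPM in WT, and was not called. The symbol CAPN1 stands for 2 genes. ENSDARG00000045199, named after its values were seen, stood at 3.11, 2.91 and 3.37 CPM in *bves* KO-EX, 2.68, 1.90 and 3.38 CPM in *bves* KO, and 0.863, 1.43 and 1.77 CPM in WT. Its knockout libraries all lay above WT, those of *bves* KO on CPM only, with a log2 fold change of 1.21 in *bves* KO-EX against WT (0.49 to 1.92, adjusted p 0.0549 in edgeR and 0.0215 in DESeq2). ENSDARG00000055338 ranged from 7.67 to 18.3 CPM in *bves* KO-EX, 13.7 to 18.2 CPM in *bves* KO and 13.5 to 14.9 CPM in WT. *capn1a* and *capn2a* are adjacent protein-coding genes in the same RefSeq list, and *capn1a* averaged 21.2 ± 2.01 CPM in *bves* KO-EX, 21.7 ± 4.33 CPM in *bves* KO and 18.7 ± 5.27 CPM in WT. *capn5a*, a calpain that lacks the calmodulin-like domain in mammals, had 25, 27 and 17 counts in *bves* KO-EX, 8, 6 and 15 in *bves* KO, and 10, 4 and 11 in WT, so that *bves* KO-EX lay above both other groups (adjusted p 0.234 against *bves* KO and 0.0959 against WT). It is named after its values were seen. The other tested calpains (*capns1b*, *capn2b*, *capn1b*, *capn7*, *capn10* and *capn15*) had adjusted p values of 0.134 or above in every comparison. Of these, *capn2b* lay above WT in both knockout groups on CPM only, with an unadjusted p under 0.05 in *bves* KO-EX against WT. *capn1b* lay above WT in *bves* KO-EX on both scales.

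Of the 4 genes that share only a prefix with the others, 3 were tested and edgeR and DESeq2 called 0. An unadjusted p under 0.05 was found for 1 (*itgb1bp1*) in *bves* KO-EX against WT (33.3%, against 25.1% of all genes). *itgb1bp1*, which encodes a protein that binds the integrin beta 1 tail, averaged 10.3 ± 1.52 CPM in *bves* KO-EX, 9.69 ± 0.989 CPM in *bves* KO and 7.29 ± 2.17 CPM in WT, with an adjusted p of 0.198 in *bves* KO-EX against WT.

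The wider pathway was read from a list of 96 other symbols, also chosen with earlier results of these data known. They matched 119 genes, 99 of them tested. In *bves* KO against WT 2 were called, both higher (2.02%, against 1.11% of all genes called). There, 17 had an unadjusted p under 0.05 (17.2%, against 16.9%) and DESeq2 called 7 (7.07%, against 4.78%). *itga5*, a fibronectin-binding integrin chain, stood at 35.1, 33.6 and 37.2 CPM in *bves* KO, against 12.8, 7.15 and 14.6 CPM in WT, a 3.05-fold difference (adjusted p 0.0149). It stood at 18.2 to 23.1 CPM in *bves* KO-EX, between the other groups. *col6a2*, a chain of the collagen VI that surrounds muscle fibres, stood at 58.1, 67.2 and 65.4 CPM in *bves* KO-EX, 40.6, 45.2 and 60.3 CPM in *bves* KO, and 22.3, 21.8 and 23.1 CPM in WT, and was 2.17-fold higher in *bves* KO than in WT (adjusted p 0.0265). Between *bves* KO-EX and *bves* KO edgeR called 0 of the 99, against 1.64% of all genes. An unadjusted p under 0.05 was found for 10 (10.1%, against 15.3%), and DESeq2 called 3 (3.03%, against 4.62%).

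Of the 99 genes, 6 in *bves* KO-EX against WT were called higher and 1 was called lower. Together, in both directions, they are 7.07%. Of all genes, 3.06% were called higher and a further 2.34% lower, and those shares are to be added for a like comparison. An unadjusted p under 0.05 was found for 23 (23.2%, against 25.1%), and DESeq2 called 13 (13.1%, against 11.8%). The chains of collagen VI rose together: *col6a2* was 2.84-fold higher (adjusted p 0.00381), *col6a1* 2.55-fold (0.00622) and *col6a3* 2.02-fold (0.0273). The transglutaminase *tgm2b* was 2.58-fold higher (0.0108), the parvin *parvab* of the integrin-linked kinase complex 2.08-fold (0.0169) and the laminin chain *lamc3* 1.38 higher on the log2 scale (0.0396). These 6 genes also lay above WT in every *bves* KO library on CPM, so the rise was not confined to *bves* KO-EX. In *bves* KO against WT, DESeq2 called *col6a2*, *col6a1*, *col6a3* and *lamc3* higher, and edgeR called only *col6a2* of the 6. *tnpo3*, a nuclear import receptor whose human counterpart is a limb-girdle dystrophy gene, fell to 25.9, 26.4 and 29.7 CPM in *bves* KO-EX, against 71.0, 44.4 and 40.5 CPM in WT (log2 fold change -0.93, adjusted p 0.0396). Without libraries 1 and 3 labelled *bves* KO-EX, a setting applied to this list after seeing the data, 0 of these 7 genes passed in edgeR. Their log2 fold changes kept their sign, at 1.57 for *col6a2* (adjusted p 0.0559), 1.47 for *col6a1* (0.0620), 1.18 for *col6a3* (0.132), 1.096 for *tgm2b* (0.162), 1.09 for *parvab* (0.139), 1.17 for *lamc3* (0.274) and -0.99 for *tnpo3* (0.239). With 1 library left out at a time, *tgm2b*, *col6a2* and *col6a1* passed in all 9 fits, *parvab* in 7, *col6a3* in 3, *lamc3* in 2 and *tnpo3* in 1. In *bves* KO against WT, *itga5* passed in 6 of those 9 fits and *col6a2* in 5. The fibroblast marker sums differed in the same comparison as the collagen VI genes, and their part was not tested.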

How the data were processed

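RNA sequencing libraries of zebrafish skeletal muscle were made by the authors from polyadenylated RNA with a stranded kit and sequenced as read pairs. The authors deposited estimated counts (RSEM-type, not whole numbers for 9.01% to 11.8% of values) and TPM, scaled for gene length and library size. The submitters' processing notes name fastp, HISAT2, StringTie and RSEM. The genome build and annotation are not given in the sources used here, so no coordinates or sequences are printed. The deposited columns of the authors' fold changes, p-values and group means were not used.

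Estimated counts were rounded. Genes were filtered with filterByExpr, which left 14849, and scaled by TMM. The main test was the quasi-likelihood test of edgeR 4.0.16 (R 4.3.3) with all 9 libraries in the fit. It is two-sided, and p-values were adjusted over all tested genes by the Benjamini-Hochberg method. A gene was called at an adjusted p under 0.05. Intervals are 95% and were taken from the size of the fold change and its F statistic. DESeq2 1.42.0 was an alternative, as were other scalings, filters, a fold threshold of 2, the 6 libraries compared, a replicate block and each library left out. The test step was tested on simulated data with changes larger than most reported here, in well-counted genes and with the same spread for every gene. That run does not bear on small changes or low counts. Figures were drawn with matplotlib.

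Groups came from the sample titles. Nothing says whether a fish gave muscle to more than 1 library, so p-values measure the spread between these libraries. The members, role groups, partner list and markers were chosen with earlier results of these data known. The text names every called member, the core complex and repair genes, the 2 largest positive and 2 largest negative uncalled fold changes per comparison, the most abundant member of each role group, and called partners. Others are marked as named after their values were seen, or appear as the rest of a role group. Results of 2 members are not reported here, and neither is shown in the figures.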

Additional observations from a re-analysis of the deposited data

How the results depend on the processing

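The count of members called was 0 in *bves* KO against WT and 0 in *bves* KO-EX against *bves* KO, and DESeq2 called 3 in each. In *bves* KO-EX against WT the count of 3 became 9 with DESeq2 (7 higher, 2 lower), 5 with at least 10 counts in every library, 1 in a fit of only the 6 libraries compared, and 1 (*vclb*, lower, on a single library of 3 counts) when libraries 1 and 3 labelled *bves* KO-EX were both left out. Leaving out 1 library at a time gave 0 to 5 calls there, 0 to 1 in *bves* KO-EX against *bves* KO and 0 to 0 in *bves* KO against WT. The count was 0 without WT library 1 or *bves* KO-EX library 1, 1 without *bves* KO-EX library 3 and 5 without WT library 3. For *bves* in *bves* KO against WT (-2.13, adjusted p 0.104), DESeq2 (-2.13, adjusted p 0.00166), the 6 libraries alone (-2.12, 0.0359) leaving out *bves* KO-EX library 2 (-2.12, 0.0175) and leaving out its libraries 1 and 3 (-2.13, 0.0373) passed the threshold, and leaving out single libraries gave -2.67 to -1.88. For *bves* in *bves* KO-EX against *bves* KO (1.75), DESeq2 gave 1.74 (adjusted p 0.0174), leaving out *bves* KO-EX libraries 1 and 3 gave 0.08 (0.972), leaving out its library 2 gave 2.18 (0.0339, past the threshold), and leaving out single libraries gave 1.45 to 2.30. No called value of a named member turned round. Of 1503 alternative values of named members, 1470 kept their side of the threshold, 22 lost a call and 11 gained one, and 64 uncalled values changed sign.

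The labels do not say whether same-numbered libraries were handled together, and the correlations given next cannot settle it. Deviations from the group means of same-numbered libraries correlated at -0.28 to 0.16 across genes. With the replicate block, 0, 0 and 2 members were called in *bves* KO against WT, *bves* KO-EX against *bves* KO and *bves* KO-EX against WT, and *capn2a* was lost (adjusted p 0.0530). Under scaling by total counts, the typical gene stood at a log2 fold change of 0.11 (median) wherever *bves* KO-EX was compared. The cause of these changes was not tested. With 3 libraries a group, differences of low members such as *fkrp*, on 3 to 28 counts, could not be resolved at this depth.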
